A study of Mus musculus with 6 samples.

Results

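Find-me signals are what a dying cell releases to draw phagocytes to it, and 7 genes that make, export or act as such signals were examined in apoptotic osteoblasts of young and old mice. The members were chosen by symbol from the deposited table, where all 7 of 7 were found among 29587 gene rows. They are the pannexin channel genes Panx1 and Panx3, the sphingosine kinase genes Sphk1 and Sphk2, the phospholipase gene Pla2g6, the lipid transporter gene Abca1 and the cytokine gene Mif. The data were messenger RNA profiles from 3 libraries labelled young and 3 labelled old. In both groups bone pieces from mice were put into culture, the adherent cells were passaged and taken as bone marrow mesenchymal stem cells, these were moved to osteogenic medium, and the resulting cells were killed with ultraviolet light. The labels name no genotype and no other treatment for either group, and gave no age beyond young and old. The groups are a model of killed cultured cells, so RNA present after the ultraviolet exposure was what was measured. No library of unexposed cells was included, so RNA changes made by the exposure cannot be told apart from earlier levels. The labels do not tell whether libraries sharing a group stem from different animals or dishes, and every p-value therefore reflects library-to-library spread that may be technical. Means over the 3 libraries of a group are given ± SD (n = 3) throughout.

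In dying cells pannexin 1 channels open, and ATP and UTP then leave the cell and reach purinergic receptors such as P2ry2 on phagocytes. Sphingosine kinases turn sphingosine into sphingosine 1-phosphate, and the calcium-independent phospholipase A2 of Pla2g6 cuts phosphatidylcholine to lysophosphatidylcholine, whose export has been tied to Abca1 and which phagocytes sense through Gpr132. Mif protein is released from cells and binds Cd74 and Cd44 on leukocytes. In bone, pannexin 3 is known as a channel of differentiating osteoblasts and sphingosine 1-phosphate as a signal between osteoclasts and osteoblasts. The libraries hold transcript levels and do not measure channel opening, enzyme activity or release.

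Depth was 64881180 to 84535939 reads per library, recovered from the deposited RPKM (reads per kilobase of gene, scaled to library depth). Young replicate 1 stood apart: its values correlated with young replicates 2 and 3 at a Pearson's r of 0.949 and 0.962 across genes, which are not independent replicates. Every other pair of the same group was at 0.995 or above. With old replicates 1, 2 and 3 young replicate 1 was at 0.964, 0.968 and 0.959. By r it was therefore no nearer to its own group than to the old libraries. Young replicates 2 and 3 were at 0.977 to 0.984 with the old libraries. Fold changes of the members are given with and without young replicate 1, as are most results on other genes. The labelled cell type was checked by markers. The osteoblast genes Col1a1 and Runx2 were at 1550 ± 424 and 5.11 ± 0.809 RPKM (young) and at 1528 ± 31.8 and 3.91 ± 0.203 RPKM (old), while Alpl and Bglap were below 1 RPKM on average in both groups. Of 9 listed osteoblast genes 7 were tested, and with all libraries 1 was called higher, Spp1 (290.4 ± 75.9 to 732 ± 68.6 RPKM, limma adjusted p = 0.0307), and 1 lower, Sp7 (8.44 ± 0.567 to 4.90 ± 0.0281 RPKM, limma adjusted p = 0.0186). Of 8 macrophage markers listed, 7 were used. Their summed level was 8.25 to 9.53 RPKM in young and 9.21 to 10.5 RPKM in old, most of it from Lyz2, and the defining markers Ptprc and Adgre1 were at or near 0. Chondrocyte markers, led by Col2a1 and Sox9, summed to 34.2 to 73.0 RPKM across young libraries and 53.0 to 56.6 RPKM across old ones, and the adipocyte, endothelial and erythroid lists each summed to at most 0.16 RPKM.

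By level the members spanned more than 3 orders of magnitude, with Mif at the top and Abca1 at the bottom, and their order was Mif, Sphk1, Sphk2, Pla2g6, Panx3, Panx1 and Abca1. Levels per length were compared between genes on the RPKM scale, which rests on the deposited gene length, so this order is approximate. In mean RPKM over the 6 libraries the members stood at 117, 4.54, 2.11, 0.719, 0.51, 0.297 and 0.0415. The library ranges of Pla2g6 and Panx3 overlapped, as did those of Panx3 and Panx1, so these neighbours in the order were not separated beyond their spread. The others did not overlap with their neighbours. Only Mif, Sphk1 and Sphk2 passed the expression filter of at least 1 RPKM in at least 3 libraries and entered the main comparison, and 4 members did not.

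The stretch of 250 bases before the annotated transcription start is shown for Mif and Abca1, the members of highest and lowest level, on the strand of the gene, from RefSeq on GRCm38.p6, the same assembly as mm10. Capitals mark matches, on both strands, to 4 motifs: the cyclic AMP response element TGACGTCA, the core ACGTG that is read by E-box and hypoxia factors, the GC box core GGGCGG and the TATA box TATAAA. The Mif stretch lies at chr10:75860278-75860527 and the Abca1 stretch at chr4:53159896-53160145, both on the minus strand.
Mif: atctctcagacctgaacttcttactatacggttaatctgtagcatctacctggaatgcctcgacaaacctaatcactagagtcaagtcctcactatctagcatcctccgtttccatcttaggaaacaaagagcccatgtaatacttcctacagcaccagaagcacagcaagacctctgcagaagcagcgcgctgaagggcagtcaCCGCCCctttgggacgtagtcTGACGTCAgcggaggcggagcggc
Abca1: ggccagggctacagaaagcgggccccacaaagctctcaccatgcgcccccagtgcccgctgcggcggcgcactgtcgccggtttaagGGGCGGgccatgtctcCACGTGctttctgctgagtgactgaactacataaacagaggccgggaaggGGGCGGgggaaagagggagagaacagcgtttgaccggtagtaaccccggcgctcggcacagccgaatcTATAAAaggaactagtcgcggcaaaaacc
In the Mif stretch a cyclic AMP response element lay 24 to 17 bases before the start and a GC box core, on the opposite strand, 45 to 40 bases before it. The Mif exons of the deposited table begin at 75860250 on the minus strand, inside the RefSeq start. These distances therefore hold for the RefSeq start alone. The Abca1 stretch held a TATA box 29 to 24 bases before the start, GC box cores from 97 and 163 bases before it, and ACGTG on both strands, overlapping in one palindrome, from 147 bases before it. Among the 32851 stretches of the same length in the RefSeq table, the 4 motifs in the order given were held by 1.55%, 16.6%, 32.7% and 12.4%. Of the 7 members, 6 had an entry there. Panx3 was not matched.

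With all 6 libraries, 0 of the 3 tested members were called higher and 0 lower in old at a limma adjusted p under 0.05, where 1.47% of the 12015 tested genes were called higher and 0.0999% lower. At an unadjusted p under 0.05 there was 1 member, Mif, among 1349 of the 12015 tested genes. The voom fit of limma on the recovered reads also called 0 members, with 162 genes higher and 8 lower. Without young replicate 1, Mif was called higher and no member lower, where 13.2% and 19.4% of tested genes were called higher and lower. Library quality weights likewise gave 1 member higher, Mif, against 17.6% of genes higher and 24.6% lower. In the fits with no filter 0 of 7 members were called with all libraries, where 0.629% of rows were higher and 0.0372% lower, and 1, Mif, with young replicate 1 left out, where 2.48% were higher and 2.22% lower. All log2 fold changes that follow compare old with young after adding 1 to RPKM, a step that shrinks differences of low genes. In bulk libraries, fewer cells of a type and less RNA per cell cannot be told apart.

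**Figure D1:**
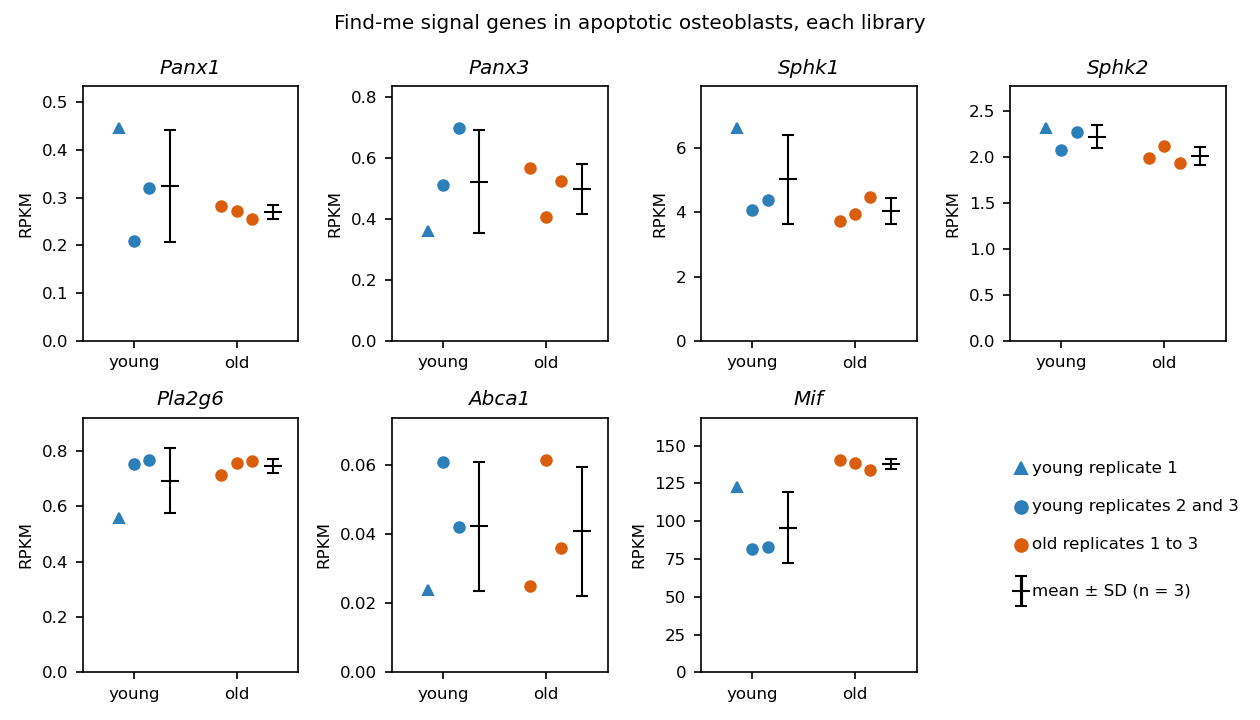
RPKM (vertical axes, from 0, a scale of its own in each panel) of the 7 members in each young and old library, with mean ± SD of 3 libraries. Mif is the 1 panel in which the groups do not overlap, with young replicate 1 at 123 RPKM between the other young libraries and the old ones.

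Mif had the largest level and was the 1 member whose groups did not overlap, as was so for 20.8% of tested genes and 14.3% of all rows. The gene lies on chromosome 10 (75859353 to 75860250, minus strand, mm10) and is short, at 554 bases of exon. Its level was 123, 81.5 and 83.0 RPKM in young replicates 1, 2 and 3 and 140.5, 139 and 134 RPKM in old replicates 1, 2 and 3. The old libraries were all above the young ones, and young replicate 1 lay closer to the old libraries than to the other young ones. The means were 95.8 ± 23.4 RPKM (young) and 138 ± 3.40 RPKM (old), a ratio of 1.44. The log2 fold change was 0.55 ± 0.17 (SE), with a 95% interval of 0.13 to 0.96, and it did not pass the test over all genes (limma adjusted p = 0.295). Without young replicate 1 it was 0.74 ± 0.05 (SE, limma adjusted p = 0.000223), a ratio of means of 1.67, and the interval was 0.62 to 0.85. In that fit Mif rose. Of the 7 tested osteoblast genes, in which Spp1 and Sp7 already passed with all libraries, Spp1 was again higher (1.56) and 5 were lower: Sp7, Ibsp, Runx2, Col1a2 and Col1a1 (-0.68, -0.66, -0.42, -0.42 and -0.23). Both tested chondrocyte genes, Col2a1 and Sox9, were lower as well (-0.37 and -0.25). Among all tested genes that fit called 13.2% higher and 19.4% lower. The part of these marker genes in the result was not tested.

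The deviation of young replicate 1 was read beside gene length, since Mif is among the shortest genes. Over the 1908 tested genes under 1000 bases, the median log2 ratio of young replicate 1 to the mean of young replicates 2 and 3 was 0.10, with quartiles of -0.53 and 0.50. The median ratio was 0.20 in genes from 1000 to under 2000 bases and -0.10 from 2000 to under 5000. In the 3723 genes of 5000 bases or more it was -0.40. The ratio was therefore not highest in the shortest class. Mif stood at 0.57, above 79.1% of the short genes. With each library's trend on gene length removed, the log2 fold change of Mif was 0.49 ± 0.16 (SE, limma adjusted p = 0.248), and with young replicate 1 left out as well it was 0.67 ± 0.05 (SE, limma adjusted p = 0.000355).

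**Figure D2:**
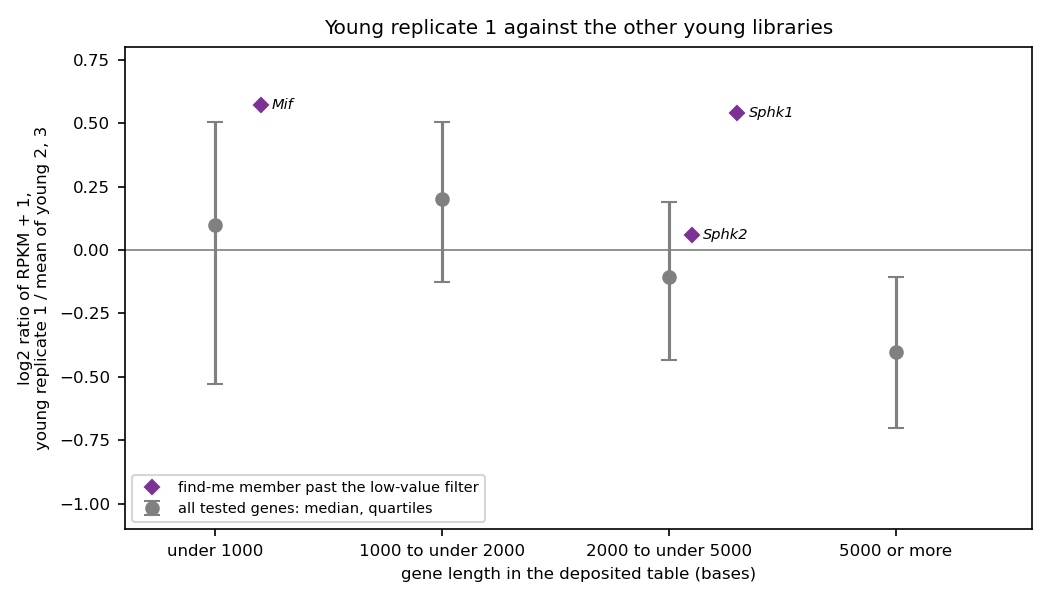
Log2 ratio of RPKM + 1 in young replicate 1 to the mean of young replicates 2 and 3 (vertical axis), by gene length class (horizontal axis). Grey points are medians of all tested genes with bars from the lower to the upper quartile, and diamonds are the 3 members past the filter. Mif at 0.57 and Sphk1 at 0.54 lie above the upper quartile of their class, and Sphk2 at 0.06 lies within the quartiles.

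The Mif homologue Ddt encodes D-dopachrome tautomerase. Ddt, chosen for this after its values were seen, read 23.2, 17.8 and 17.3 RPKM (young) and 20.8, 18.9 and 17.7 RPKM (old), with overlapping groups (log2 fold change -0.014 ± 0.14 SE, limma adjusted p = 0.995). The ratio of Mif to Ddt within a library was 5.29, 4.58 and 4.79 in young and 6.76, 7.34 and 7.56 in old. These ratios did not overlap between groups, and here young replicate 1 was on the young side. An exact two-sided permutation test gave p = 0.10, the smallest that 3 against 3 allows, for a ratio that was not in the original plan of tests. A processed pseudogene, Mif-ps3, had 0 to 2 reads per library against 3505 to 6579 for Mif. How the authors' counting treated reads shared with copies of Mif was not given in the sources used here, so its level is uncertain to that extent.

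No Mif receptor gene passed the test with all libraries. Cd74, the chain that binds Mif at the cell surface, was at 1.16, 1.11 and 1.13 RPKM (young) and 2.06, 2.00 and 1.61 RPKM (old). These groups did not overlap, as was so for 20.8% of tested genes. The log2 fold change of 0.43 ± 0.09 (SE) did not pass the test with all libraries (limma adjusted p = 0.0962). It passed without young replicate 1 (0.44, limma adjusted p = 0.0125). Cd44, its signalling partner and a receptor for hyaluronan, was at 15.6 ± 5.36 RPKM (young) and 20.8 ± 2.22 RPKM (old), with overlapping groups. Cops5, an intracellular partner of Mif, was at 23.1 ± 4.68 and 22.8 ± 0.606 RPKM. Of the 7 listed Mif partners 6 were used, 4 were tested and 0 were called, with a median log2 fold change of 0.21. The fit on 5 libraries had 1 higher, Cd74, where 13.2% of all tested genes were called higher. Macrophages carry Cd74. Of the 7 macrophage markers used, Ptprc, Adgre1 and Itgam were at or near 0, Csf1r, Cd14 and Cd68 averaged 0.422 to 0.859 RPKM in each group, and Lyz2 was at 7.30 ± 0.762 RPKM (young) and 8.14 ± 0.512 RPKM (old). Their part in the Cd74 values was not tested.

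Sphk1 and Sphk2 make sphingosine 1-phosphate, mainly at the plasma membrane and in the cytosol for Sphk1 and in the nucleus and inner membranes for Sphk2. Sphk1 (chromosome 11, 116530925 to 116536674, plus strand, mm10) was at 6.61, 4.08 and 4.38 RPKM (young) and 3.72, 3.94 and 4.49 RPKM (old). Young replicate 1 was the highest of the 6, and the other 5 libraries overlapped between groups. The log2 fold change was -0.23 ± 0.17 (SE, limma adjusted p = 0.797), with an interval of -0.65 to 0.18. Without young replicate 1 it was -0.05 ± 0.08 (SE, limma adjusted p = 0.626), with an interval of -0.24 to 0.14. Young replicate 1 lay 0.54 above the other young libraries on the log2 scale in this gene, more than in 93.0% of the 4798 tested genes from 2000 to under 5000 bases.

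Sphk2 (chromosome 7, 45709467 to 45718002, minus strand, mm10) was at 2.31, 2.08 and 2.26 RPKM (young) and 1.99, 2.12 and 1.93 RPKM (old). The groups overlapped through young replicate 2 and old replicate 2 alone. The log2 fold change was -0.09 ± 0.08 (SE, limma adjusted p = 0.833), with an interval of -0.28 to 0.09, and without young replicate 1 it was -0.07 ± 0.06 (SE, limma adjusted p = 0.399). Sphk1 was the more abundant kinase in each library, with a ratio of Sphk1 to Sphk2 of 2.26 ± 0.530 in young and 2.02 ± 0.267 in old (exact two-sided permutation p = 0.5). Exons of Sphk2 share 13.0% of their bases with Dbp and 8.97% with the ribosomal protein gene Rpl18, and those of Sphk1 share 4.02% with Gm29292, all on the opposite strand. Whether counting used strand was not given in the sources used here, so part of these values is uncertain. Rpl18 was at 48.6 RPKM in young replicate 1 and at 23.2 to 33.1 RPKM in the other 5 libraries.

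**Figure D3:**
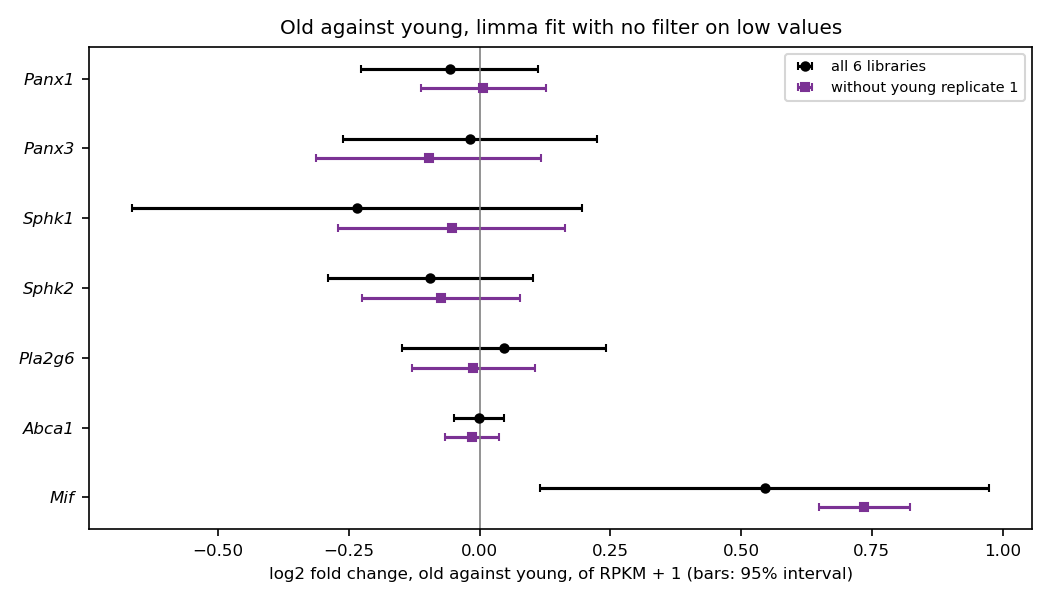
Log2 fold change of RPKM + 1 in old against young (horizontal axis) for the 7 members, from a limma fit with no filter on low values. Points are estimates and bars are 95% intervals, in black with all 6 libraries and in purple without young replicate 1. The intervals of every member but Mif span 0 in both fits.

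Around the kinases, the enzymes that supply and remove sphingosine 1-phosphate and its receptors gave no call with all libraries. Of 17 listed supply, export and removal genes 11 were tested and 0 were called, with a median log2 fold change of -0.03, where all tested genes had a median of 0.0055. The lysosomal ceramidase gene Asah1, which frees sphingosine, had the highest level, at 33.0 ± 6.03 RPKM (young) and 32.1 ± 1.82 RPKM (old). Abcc1, a transporter that can export sphingosine 1-phosphate, was at 1.49, 3.19 and 2.57 RPKM (young) and 4.36, 4.16 and 4.84 RPKM (old). Its groups did not overlap, as was so for 20.8% of tested genes. Its log2 fold change of 0.71 ± 0.20 (SE) missed the threshold with all libraries (limma adjusted p = 0.223) and passed it without young replicate 1 (0.49, limma adjusted p = 0.0111). The acid sphingomyelinase gene Smpd1 was at 3.49 ± 0.168 RPKM (young) and 3.15 ± 0.136 RPKM (old). With that library left out the list had 1 higher member, Abcc1, and 1 lower, the neutral sphingomyelinase gene Smpd3 (-0.43, limma adjusted p = 0.00685). Smpd3 is outside the rule for naming and is given to complete this count. Among all tested genes that fit called 13.2% higher and 19.4% lower.

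Of the 5 sphingosine 1-phosphate receptor genes 2 were tested, and 0 were called with or without young replicate 1. S1pr1 was the most abundant, at 50.5, 35.4 and 39.5 RPKM (young) and 34.8, 33.9 and 34.7 RPKM (old), with the highest value again in young replicate 1. Its groups did not overlap, as was so for 20.8% of tested genes (log2 fold change -0.26 ± 0.14 SE, limma adjusted p = 0.64). S1pr2 was at 1.11 ± 0.0361 and 1.23 ± 0.123 RPKM. In level per length S1pr1 stood above both kinases.

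Pla2g6 (chromosome 15, 79286228 to 79328390, minus strand, mm10) stayed under the filter. It was at 0.557, 0.753 and 0.768 RPKM (young) and 0.715, 0.758 and 0.763 RPKM (old), from 180 to 317 reads. Young replicate 1 was the lowest of the 6, and the others lay within a narrow band in which the groups overlapped. In a fit with no filter its log2 fold change was 0.05 ± 0.08 (SE, limma adjusted p = 0.91), and without young replicate 1 it was -0.01 ± 0.04 (SE, limma adjusted p = 0.897).

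Of the genes listed for the same lipid, those past the filter were more abundant than Pla2g6, and some of those under it were less abundant. Of 15 listed genes for release and removal of lysophosphatidylcholine 11 were tested and 0 were called, with a median log2 fold change of -0.05. Pla2g12a, a secreted phospholipase gene, had the highest level at 10.8 ± 0.212 RPKM (young) and 10.6 ± 2.08 RPKM (old). Pla2g4a, the cytosolic calcium-dependent phospholipase gene, was at 2.81, 3.88 and 3.23 RPKM (young) and 5.27, 4.32 and 5.49 RPKM (old). Its groups did not overlap, as was so for 20.8% of tested genes, and its log2 fold change was 0.49 ± 0.13 (SE, limma adjusted p = 0.213). Lypla1, a lysophospholipase gene, was at 3.50 ± 0.341 and 2.69 ± 0.187 RPKM (limma adjusted p = 0.328). With young replicate 1 left out, Pla2g4a and the platelet-activating factor hydrolase gene Pla2g7, which lies outside the naming rule, were higher (limma adjusted p = 0.0313 and 0.00053). Lypla1 was lower in that fit (limma adjusted p = 0.0473), where 13.2% of all tested genes were higher and 19.4% lower.

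The receptors of these lipids were few. Gpr132, the receptor gene through which phagocytes sense lysophosphatidylcholine, was listed at 0 in each library but old replicate 2, where it was at 0.0109 RPKM. Of 7 listed lysophospholipid receptor genes 6 were used, 2 were tested and 0 were called, with a median log2 fold change of 0.22. Lpar1, a receptor gene for lysophosphatidic acid, was at 16.3, 9.31 and 10.3 RPKM (young) and 14.1, 14.9 and 13.4 RPKM (old), and Lpar4 was at 1.65 ± 0.286 and 1.99 ± 0.121 RPKM. Young replicate 1 was the highest of the 6 for Lpar1. Without it both Lpar1 and Lpar4 were higher in old (0.48 and 0.27, limma adjusted p = 0.00504 and 0.0245), as were 13.2% of all tested genes.

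Abca1 (chromosome 4, 53030787 to 53159895, minus strand, mm10), which loads phospholipid and cholesterol onto apolipoprotein A-I, was the lowest member. It was at 0.0238, 0.0609 and 0.0419 RPKM (young) and 0.0251, 0.0614 and 0.0359 RPKM (old), that is 16 to 49 reads per library over 10363 bases of exon, where 3 reads correspond to at most 0.00446 RPKM. The groups spanned almost the same range. Counting error alone is large at this depth, and no difference was detectable (no-filter limma adjusted p = 0.994, log2 fold change -0.002 ± 0.019 SE, and -0.015 ± 0.019 without young replicate 1). Of 10 listed genes of cholesterol efflux and of the liver X receptors, the sterol sensors that switch on Abca1, 6 were tested and 0 were called, with a median log2 fold change of -0.11. Mylip, a ubiquitin ligase gene among their targets, was at 7.89, 9.66 and 9.13 RPKM (young) and 7.82, 7.05 and 6.76 RPKM (old) (log2 fold change -0.27 ± 0.11 SE, limma adjusted p = 0.432). Apoe was at 5.64 ± 0.140 and 4.98 ± 0.856 RPKM and Scd1, a fatty acid desaturase gene, at 17.4 ± 6.65 RPKM (young) and 15.9 ± 2.23 RPKM (old). Without young replicate 1, Mylip and Scd1 were lower (-0.34 and -0.40, limma adjusted p = 0.0155 and 0.0351), as were 19.4% of all tested genes.

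Panx1 and Panx3 were both under the filter. Panx1 (chromosome 9, 15002128 to 15045478, minus strand, mm10), the channel that opens in dying cells, was at 0.445, 0.209 and 0.320 RPKM (young) and 0.282, 0.273 and 0.255 RPKM (old), from 98 to 174 reads. The young libraries enclosed the old ones. In the fit with no filter its log2 fold change was -0.06 ± 0.07 (SE, limma adjusted p = 0.871), and without young replicate 1 it was 0.0072 ± 0.045 (SE, limma adjusted p = 0.943). The ratio of means was 0.831 with all libraries and 1.02 without young replicate 1.

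Panx3 (chromosome 9, 37659902 to 37669235, minus strand, mm10) was at 0.359, 0.510 and 0.695 RPKM (young) and 0.565, 0.405 and 0.523 RPKM (old), from 80 to 198 reads. Here too the young libraries enclosed the old ones, with young replicate 1 the lowest. The log2 fold change was -0.02 ± 0.10 (SE, limma adjusted p = 0.979), and without young replicate 1 it was -0.10 ± 0.08 (SE, limma adjusted p = 0.55). Panx3 was above Panx1 in 5 of 6 libraries, and young replicate 1 was the exception, with a ratio of Panx3 to Panx1 of 0.807 there and of 1.49 to 2.44 elsewhere.

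Of 8 listed genes of nucleotide release 6 were tested and 0 were called, with a median log2 fold change of -0.0035. Gja1, the connexin gene of osteoblasts whose hemichannels also pass ATP, was at 25.1 ± 0.969 RPKM (young) and 24.9 ± 0.807 RPKM (old).

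Nucleotides outside the cell are cut to adenosine and taken up again. Of 13 listed genes for this 4 were tested and 0 were called, with a median log2 fold change of 0.01. Slc29a1, the equilibrative nucleoside transporter gene, was at 9.26 ± 2.22 RPKM (young) and 12.5 ± 0.493 RPKM (old) (log2 fold change 0.41 ± 0.17 SE, limma adjusted p = 0.455), and the adenosine deaminase gene Ada at 1.45 ± 0.152 and 1.69 ± 0.0291 RPKM. In both the groups did not overlap, as was so for 20.8% of tested genes. In the fit that left out young replicate 1, Slc29a1 was higher (0.22), and Adk and Entpd6, which are outside the naming rule, were lower (-0.26 and -0.22). Among all tested genes that fit called 13.2% higher and 19.4% lower.

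Of 13 listed nucleotide and adenosine receptor genes 11 were used, 3 were tested and 0 were called, with a median log2 fold change of 0.39. P2ry2, the receptor gene through which phagocytes follow ATP and UTP, was at 0.140 ± 0.0603 RPKM (young) and 0.224 ± 0.0308 RPKM (old), under the filter. The ATP-gated channel genes P2rx4 and P2rx7 had the smallest p of the list. P2rx4 was at 4.93, 3.78 and 3.95 RPKM (young) and 5.67, 5.88 and 5.90 RPKM (old), and P2rx7 at 0.924, 1.70 and 1.52 RPKM (young) and 2.28, 2.20 and 2.69 RPKM (old). In both the groups did not overlap, as was so for 20.8% of tested genes, and genes named by smallest p tend to be among these. The log2 fold changes were 0.39 ± 0.11 and 0.52 ± 0.15 (SE), and neither passed the test with all libraries (limma adjusted p = 0.221 and 0.223). Both were called higher without young replicate 1 (limma adjusted p = 0.00252 and 0.0179), as were 13.2% of all tested genes.

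**Figure D4:**
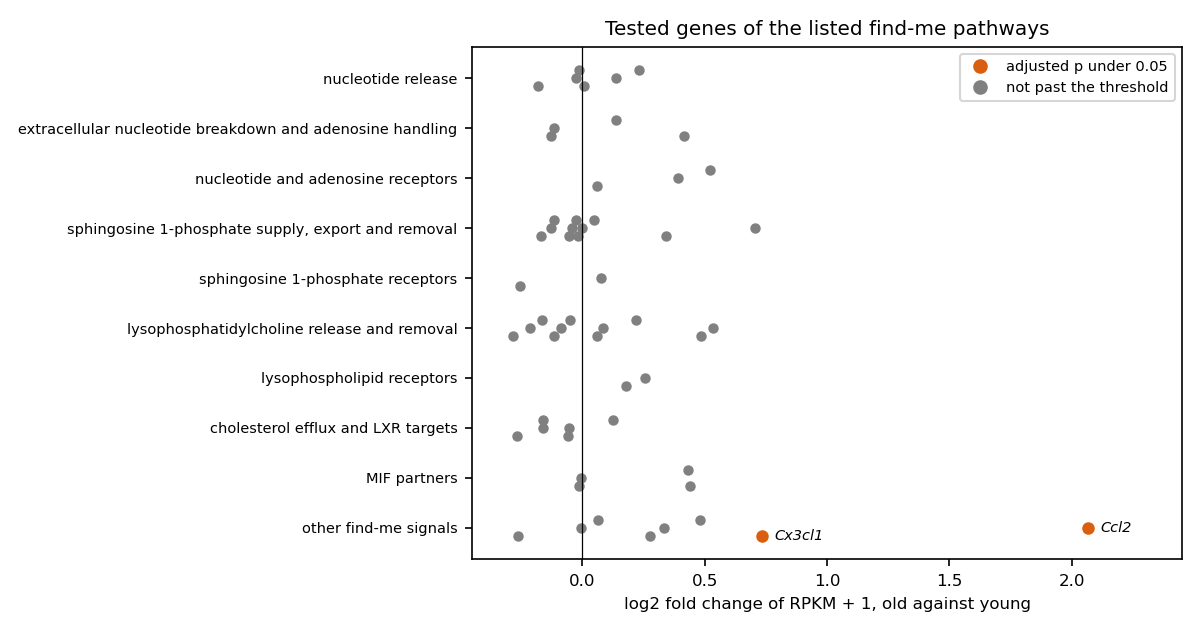
Log2 fold change of RPKM + 1 in old against young (horizontal axis) of each tested gene in the 10 listed pathways around the members (rows, 1 point per gene, shifted vertically for legibility). Orange points passed a limma adjusted p under 0.05, which are Ccl2 and Cx3cl1 among the other find-me signals, and grey points did not.

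Over the 10 lists together, 57 of 103 genes were tested, 2 were called higher and 0 lower, a share of 3.51% against 1.47% of all tested genes. Both belong to the protein find-me signals that stand beside the nucleotides and lipids. The chemokine gene Ccl2 rose from 4.82 ± 1.43 to 23.0 ± 2.30 RPKM (log2 fold change 2.07 ± 0.18 SE, limma adjusted p = 0.00379), and Cx3cl1 rose from 2.05 ± 0.194 to 4.06 ± 0.0449 RPKM (0.73 ± 0.09 SE, limma adjusted p = 0.0122). Without young replicate 1 these were 2.26 and 0.68 (limma adjusted p = 1.8e-05 and 0.00067). Hmgb1, a nuclear protein gene whose product also draws phagocytes, had the highest level of the other find-me list at 654 ± 228 and 526 ± 40.6 RPKM (limma adjusted p = 0.863). On 5 libraries, without young replicate 1, 16 of the 57 were higher and 7 lower, 28.1% and 12.3% against 13.2% and 19.4% of all tested genes. Of the 16, 6 were among the 8 tested genes of the other find-me list. The lists were chosen with earlier results of these data known, so these shares are a description only.

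The genes most like each tested member were those of highest Pearson correlation of log2(RPKM + 1) over the 6 libraries, among at least 5576 genes with a mean of 5 RPKM or more. This is a description over 6 libraries that share their groups. For Mif they were the immediate-early gene Ier3, the proteasome activator gene Psme2 and the glycolytic enzyme gene Gapdh, at r of 0.998, 0.998 and 0.997. Each had young replicate 1 between the other young libraries and the old ones, as in Psme2 at 59.4, 33.2 and 34.4 RPKM (young) and 69.2, 72.3 and 67.7 RPKM (old). For Sphk1 they were Fopnl, Med21 and Ppt1, at r of 0.996, 0.988 and 0.986, with young replicate 1 the highest library in each. For Sphk2 they were Cep131, Oaz2 and Xrcc1, at r of 0.980, 0.978 and 0.977.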

How the data were processed

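The authors deposited 1 table of RPKM for 6 libraries, with gene length and exon positions. Per the submitters' processing notes, fastp, STAR, HTSeq and edgeR were named, with the build mm10. Versions, annotation and strand setting were not given in the sources used here. Values times gene length were whole multiples of 1 read within 0.01 for 100% of values. Among genes with 1 to 5 reads, 77.5 to 79.3% had an even number, so reads are not independent molecules and counting error exceeds what their number implies. Floors of 3 reads cover counting error only.

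The comparison of groups used limma (version 3.58.1, under R 4.3.3). It was fitted to log2(RPKM + 1) with a variance trend and group as the only term, on 12015 genes of at least 1 RPKM in at least 3 libraries. Tests were two-sided, adjusted by Benjamini-Hochberg over all genes tested, and called under 0.05. The fit was checked on simulated data in which a gene had the same spread in every library. That check held no outlying library, so it does not cover the effect of young replicate 1. Members under the filter were read from a fit with no filter. Pathway genes were named as the called ones of a list, or else the 2 of smallest p, with the 1 of highest level, and P2ry2, Gpr132, Cd74 and Cd44 always. The members and lists were chosen with earlier results of these data known. Alternatives were other pseudocounts, filters, scalings, variance models, voom on recovered reads, a replicate block and leaving out each library. Listed genes with no row under their symbol were not analysed here. Some listed genes that the naming rule or a count would name are not reported here.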

Additional observations from a re-analysis of the deposited data

How the results depend on the processing

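No member was called lower under any alternative. The count of members called higher was 0, and it was 1, Mif, with library quality weights, in which young replicate 1 had a weight of 0.0425, and 0 to 1 over the fits that left out each library, 1 of them without young replicate 1. Removing the gene length trend and young replicate 1 together, chosen after seeing the data, also gave 1 member, with 1669 genes higher and 1852 lower. The log2 fold change of Mif ran from 0.44 to 0.74 over 19 alternatives, with adjusted p from 2.06e-05 to 0.845. Over all genes, 177 were higher and 12 lower. Leaving out each library gave 80 to 1589 higher and 0 to 2329 lower. Library weights gave 2119 and 2957, a mean of at least 5 RPKM gave 99 higher, an adjusted p under 0.1 gave 62 lower, and removal of the gene length trend gave 44 lower, so that 83.3% of calls were higher in place of 93.7%. The replicate block gave 82 higher and 0 lower and changed no member's call. The labels do not tell whether replicate numbers pair the samples. Correlations of deviations from the group mean were -0.0257, -0.436 and 0.329 for numbers 1, 2 and 3. Pairs of unlike number ran from -0.417 to 0.431, so these values cannot decide whether samples are paired.

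Signs turned, with no call in either fit, in these settings. Without young replicate 1 and with no filter, Panx1 was at 0.0072 and Pla2g6 at -0.012. Panx3 was at 0.063 without young replicate 3 and 0.027 without old replicate 2. Abca1 was at 0.011, 0.0089 and 0.0014 without young replicate 2, old replicate 1 and old replicate 3. Sphk1 was at 0.0080 with the length trend and young replicate 1 removed. These no-filter fits were chosen after seeing the data. Depth limits Abca1 most, at 16 to 49 reads per library.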
